A study of Mus musculus with 18 samples.

Results

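The miR-103/miR-107 family comprises 4 annotated mature microRNAs (miRNAs) of the mouse, mmu-miR-103-3p, mmu-miR-107-3p, mmu-miR-103-1-5p and mmu-miR-103-2-5p (written below without the species prefix), out of 1907 mature miRNAs in the deposited table. They were taken by name, and their reads were summed over precursor rows, since miR-103-3p has 2 such rows and each other member has 1. Of the 4 members, 3 had any read and 2, the 3p members, had enough reads to be tested. The libraries came from NIH/3T3 cells, a mouse embryonic fibroblast line, and compared size-selected small RNA before (input) and after immunoprecipitation with a monoclonal antibody against pseudouridine (Ψ-IP), Ψ being a modified form of uridine. Cells were wild type (WT) or had undergone knockdown of Pus1, which encodes a Ψ synthase, for 3 days in KD3 and for 6 days in KD6. Each of the 6 groups had 3 replicates named A, B and C, 18 libraries in all, and nothing in the labels tells whether replicates were separate cultures, so p-values measure the spread between these libraries. The table lists miRNAs and no mRNA, so neither the loss of Pus1 nor the fibroblast identity of the cells was checked here.

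Members of this family lie in introns of the Pank genes, which encode pantothenate kinases, the enzymes of the first step of coenzyme A synthesis. Each hairpin is processed into a 5p and a 3p arm, and the arm loaded into an Argonaute protein recognises targets mainly through its seed, bases 2 to 8 from the 5′ end. miR-103 and miR-107 are known for repressing the mRNA of Dicer, the enzyme that makes mature miRNAs, and for acting on insulin sensitivity and lipid metabolism.

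The mature sequences are shown to make clear how little separates the members. They come from RefSeq on GRCm38.p6, are written 5′ to 3′ and have the seed in capitals.
miR-103-3p: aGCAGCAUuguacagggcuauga
miR-107-3p: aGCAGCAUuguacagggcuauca
miR-103-1-5p: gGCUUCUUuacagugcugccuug
miR-103-2-5p: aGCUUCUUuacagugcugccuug
Both 3p members share the seed GCAGCAU and were the only 2 of 1679 reference mature miRNAs that hold it at these positions. They differ by a single substitution, G22C, counted from 1 at the 5′ end of miR-103-3p, so the 21 bases before it are the same in both. Both 5p members share the seed GCUUCUU and differ by G1A, miR-103-1-5p being named first. That seed was held by 3 reference miRNAs, the third being miR-107-5p, the other arm of the miR-107 hairpin, which is no member and is given for context. Each 3p member has 5 uridines in 23 bases, or 21.7%, against a median of 27.3% (quartiles 22.5% and 34.9%) over the 475 tested miRNAs with a reference sequence. Each 5p member has 9 uridines, or 39.1%.

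The hairpins show where reads of miR-103-3p can be assigned to a locus, with both mature arms in capitals.
Mir103-1: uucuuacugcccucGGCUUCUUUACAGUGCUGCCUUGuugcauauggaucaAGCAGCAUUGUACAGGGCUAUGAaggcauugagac
Mir103-2: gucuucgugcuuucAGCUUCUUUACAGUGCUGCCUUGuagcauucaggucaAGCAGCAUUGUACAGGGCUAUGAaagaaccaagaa
Mir107: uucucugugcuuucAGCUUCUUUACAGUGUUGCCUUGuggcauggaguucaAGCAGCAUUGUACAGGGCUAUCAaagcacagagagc
Mir103-1 lies at chr11:35782396-35782481 on the plus strand, in intron 5 of the 7-exon principal transcript of Pank3. Mir103-2 lies at chr2:131288052-131288137 on the plus strand, in intron 5 of the 7-exon principal transcript of Pank2. Mir107 lies at chr19:34820687-34820773 on the minus strand, in intron 5 of the 7-exon principal transcript of Pank1. Each hairpin is on the strand of its host gene and overlaps no exon of it in GENCODE M21. The 3p arm of miR-103 is the same in both of its hairpins, and beyond its 3′ end the hairpins share 1 further base.

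Of the 18 libraries, 17 held 3989031 to 15099781 mapped reads. The exception, KD6 input replicate A, held 241109, and results that rest on that library are given with and without it. Reads outside miRNA rows were 5.47% to 9.96% of mapped reads in the inputs and 14.8% to 38.2% in the IPs, a difference that moves with the IP and whose part in the results below was not tested. Levels are given in CPM, counts per fixed library size, scaled by TMM, a method that equalises libraries on the bulk of miRNAs. All values are relative to the other miRNAs of a library, so a lower level of the family and a higher level of other miRNAs cannot be told apart.

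Nearly all reads of the family were miR-103-3p. Over the 18 libraries it had 372259 reads, of which 332368 were in the 9 inputs and 39892 in the 9 IPs. miR-107-3p had 18926 reads, with 17204 in inputs and 1721 in IPs. The 5p arms were at the limit of detection. miR-103-2-5p had 7 reads in all, 5 in replicate C of the KD6 input and 1 each in replicates A and B of the WT input. miR-103-1-5p had 0 reads in each of the 18 libraries, which allows up to 3 counts per library, or 0.228 to 1.20 CPM in 17 libraries and 11.3 CPM in replicate A of the KD6 input. miR-107-5p had 6 reads, again only in inputs. Such limits cover counting error only. At this depth a response of the 5p arms to IP or knockdown was not detectable.

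miR-103-3p was among the more abundant miRNAs of the inputs. In WT input it was at 5077 CPM in replicate A, 4646 in B and 4407 in C, a mean of 4710 CPM ± 340 (SD, n = 3), rank 28 of the 550 miRNAs tested. In WT IP it was at 998, 1063 and 1116 CPM, a mean of 1059 ± 59.6 (SD, n = 3) and rank 58. Every WT IP library was below every WT input library, as held for 44.5% of all miRNAs in WT.
After 3 days of knockdown the input libraries held 3789, 3674 and 3738 CPM of miR-103-3p (mean 3733 ± 57.4, SD, n = 3). The IPs held 932, 942 and 1046 CPM (mean 973 ± 63.1, SD, n = 3), again all below the inputs, as for 43.1% of all miRNAs in KD3. After 6 days the inputs spread widely, from 1653 CPM in the shallow replicate A to 4151 in B and 3783 in C (mean 3195 ± 1349, SD, n = 3). The KD6 IPs held 764, 986 and 851 CPM (mean 867 ± 112, SD, n = 3). The lowest KD6 input was still above the highest KD6 IP, as for 26.5% of all miRNAs.

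miR-107-3p lay far below it in each library. It was at 224, 222 and 241 CPM in WT input (mean 229 ± 10.8, SD, n = 3), rank 121, and at 33.2, 46.0 and 46.3 CPM in WT IP (mean 41.9 ± 7.48, SD, n = 3), rank 174. In KD3 input it was at 200, 196 and 191 CPM, and in KD3 IP at 22.5, 42.2 and 57.0 CPM. The KD3 IPs differed among themselves by more than the KD3 inputs did, but none reached an input. In KD6 input it was at 60.4, 190 and 241 CPM, the first of these resting on 16 reads in the shallow library, and in KD6 IP at 31.7, 33.1 and 45.7 CPM. The plot of levels by library shows both members with a gap between input and IP in each condition. Such a separation held for 44.5% of all miRNAs in WT, 43.1% in KD3 and 26.5% in KD6.

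**Figure D1:**
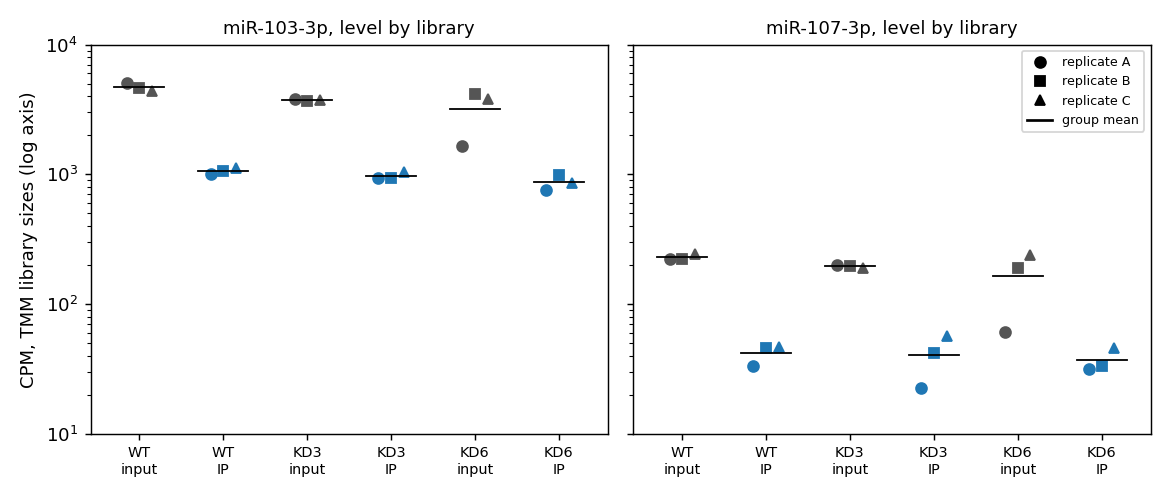
CPM of miR-103-3p (left) and miR-107-3p (right) in each of the 18 libraries, on a log axis, with inputs in grey and IPs in blue. Symbols mark the replicates and bars the group means. In each condition all IP libraries lie below all input libraries, as for 44.5% (WT), 43.1% (KD3) and 26.5% (KD6) of all miRNAs. Replicate A of the KD6 input, at 1653 and 60.4 CPM, lies nearest to its IPs.

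Both 3p members were depleted in the Ψ-IP in all 3 conditions. In WT the log2 ratio of IP to input was -2.15 ± 0.24 (SE) for miR-103-3p, a level 4.45-fold lower (95% interval of the log2 ratio -2.66 to -1.65; edgeR quasi-likelihood test, adjusted p = 1.088e-07), and -2.45 ± 0.35 for miR-107-3p, 5.46-fold lower (-3.17 to -1.73; adjusted p = 2.584e-06). Thus 2 of 2 members tested were called lower, where 40.2% of all 550 miRNAs were called lower in WT. The 2 members are not independent, since a read that ends before base 22 matches both. In KD3, where 38.2% of miRNAs were called lower, both members were too, at -1.94 ± 0.24 for miR-103-3p (edgeR, adjusted p = 4.691e-07) and -2.26 ± 0.35 for miR-107-3p (edgeR, adjusted p = 8.096e-06). In KD6 the background was 38.4% lower, and the values were -1.89 ± 0.24 (edgeR, adjusted p = 5.393e-07) and -2.23 ± 0.35 (edgeR, adjusted p = 8.719e-06). Without the shallow KD6 input the KD6 ratios were -2.38 and -2.72.

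These ratios were low but not extreme. In WT, 26.7% of the tested miRNAs had a lower ratio than miR-103-3p and 23.1% a lower ratio than miR-107-3p, which placed the family near the lower quartile of all miRNAs (-2.28). The median over all miRNAs was -0.35 in WT, -0.26 in KD3 and -0.35 in KD6. Relative to that median, miR-103-3p was at -1.80 log2 units in WT, -1.68 in KD3 and -1.53 in KD6, and miR-107-3p at -2.10, -1.996 and -1.88. With the shallow KD6 input left out, the KD6 values were -1.84 and -2.18.
The median depended on the library that TMM takes as its reference, which was a WT IP in the fit to all libraries. With each of the 17 other libraries as reference, the WT ratio of miR-103-3p was -2.16 to -1.91 for 16 of them and -1.46 with the shallow KD6 input, whereas the value relative to the median stayed between -1.81 and -1.80. Leaving out any single library other than the shallow KD6 input made that shallow library the reference, and leaving it out made a KD3 input the reference. With any single WT library left out, the WT ratio of miR-103-3p was -1.42 to -1.30, with -1.998 to -1.74 relative to the median.

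**Figure D2:**
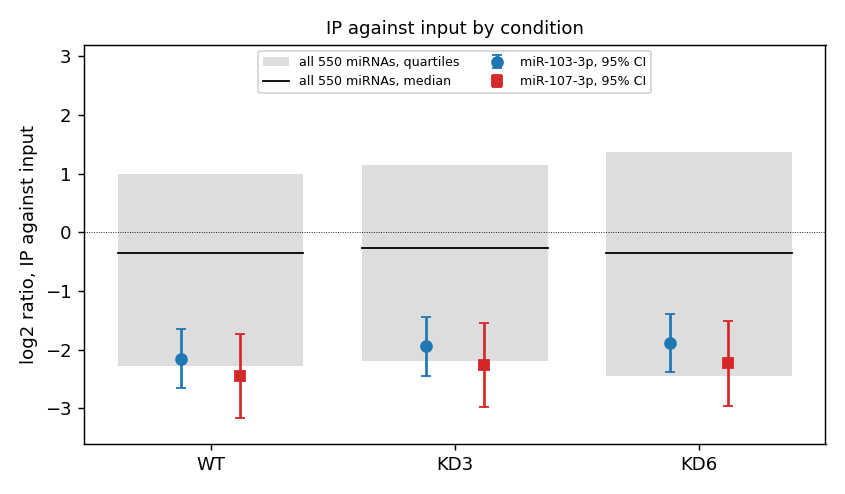
Log2 ratio of IP to input (vertical axis) in WT, KD3 and KD6 for miR-103-3p and miR-107-3p with 95% intervals, over the quartiles (grey) and median (line) of all 550 miRNAs tested. Both members lie well below the median in each condition, between -2.45 and -1.89, and near the lower quartile.

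A share of reads needs no scaling factor, though it is itself relative to the sum of all miRNA reads in a library. The family made up 0.504%, 0.482% and 0.427% of miRNA reads in the WT inputs and 0.115%, 0.116% and 0.119% in the WT IPs. The means were 0.382% ± 0.0091 (SD, n = 3) in KD3 input against 0.104% ± 0.0091 in KD3 IP, and 0.396% ± 0.172 in KD6 input against 0.0764% ± 0.0125 in KD6 IP. All 9 IPs were below all 9 inputs. How many of all miRNAs were separated in this way was not counted. By CPM, every IP was below every input of its condition for 44.5% of miRNAs in WT, 43.1% in KD3 and 26.5% in KD6. Averaged over the conditions the share was 0.0990% in IP and 0.416% in input, and the difference of -0.317 percentage points passed a two-sided exact permutation test within conditions (p = 0.00025, the smallest that 8000 assignments can give, adjusted p = 0.0020 over 8 tests of shares). Each condition alone, 3 libraries against 3, gave the smallest p possible there, 0.10. Without the shallow library the difference was -0.350 percentage points (exact permutation p = 0.00025).

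The balance between both 3p members shifted less. miR-107-3p made up 4.22%, 4.56% and 5.19% of the reads of the 3p pair in the WT inputs and 3.22%, 4.16% and 3.99% in the WT IPs, which did not overlap. In KD3 the inputs ran from 4.85% to 5.07% and the IPs from 2.36% to 5.17%, and in KD6 the inputs ran from 3.52% to 5.98% and the IPs from 3.24% to 5.10%, so that both of these conditions overlapped. Over all conditions the mean was 4.75% in input and 3.95% in IP, a difference of -0.807 percentage points that missed the threshold (two-sided exact permutation test, p = 0.0645, adjusted p = 0.133). Leaving out replicate C of the KD3 IP gave -1.01 (p = 0.0235 by the same exact permutation), replicate C of the KD6 IP -0.972 (exact permutation p = 0.0255) and replicate A of the KD6 input -0.991 (exact permutation p = 0.026). Leaving out each of the 18 libraries in turn gave differences from -1.01 to -0.545. The exact test on signs of same-letter differences, with the replicate letter as block, gave p = 0.0273 for the difference of -0.807. That test assumes that letters pair IP and input, which no label says. In each condition the correlation check described below was at or under 0.1 for at least 1 letter. Of 20 alternatives in all, 16 left the difference not past the threshold, and with single libraries left out the exact permutation p reached 0.166. Whether miR-107-3p was depleted more than miR-103-3p thus depended on the test and on single libraries.

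**Figure D3:**
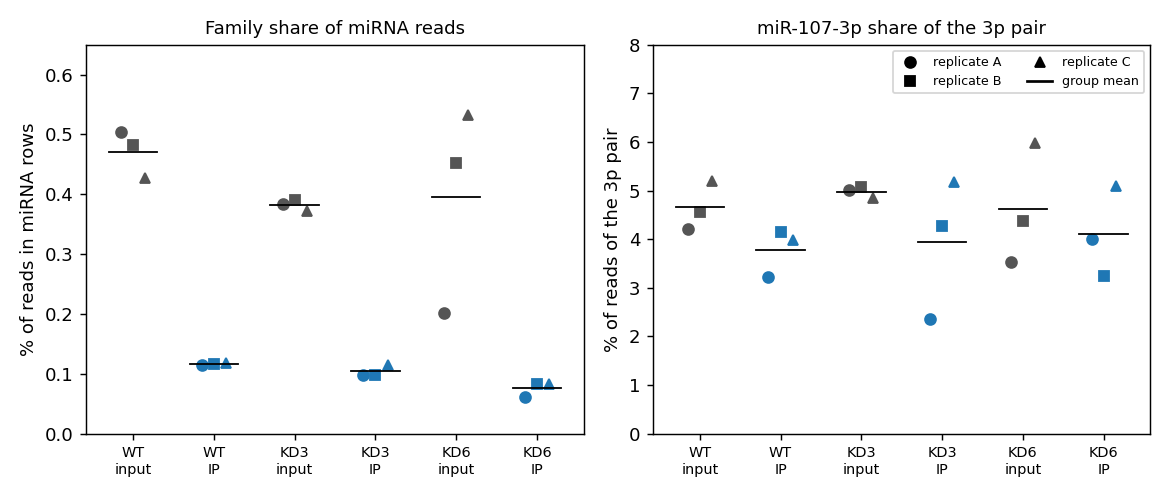
Left, share of the family in all miRNA reads (%), and right, share of miR-107-3p in the reads of miR-103-3p plus miR-107-3p (%), per library, with inputs in grey, IPs in blue, symbols for replicates and bars for group means. The family share separates all 9 IPs (at most 0.119%) from all 9 inputs (at least 0.202%), whereas the miR-107-3p share overlaps in KD3 and KD6. Such separation was not counted over all miRNAs.

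The split between the 3p members also rests on how short reads were assigned. A read that ends before base 22 matches both, and the deposited counts divide a read among the places it matches. The count of miR-107-3p was not a whole number in 14 of 18 libraries. The distinct read sequences assigned to miR-103-3p numbered 495 to 552 per library in WT input and 143 to 202 in WT IP, and those of miR-107-3p 110 to 120 and 21.7 to 38.2, at unequal depth. How many of the miR-107-3p reads were shared with miR-103-3p was not analysed here.

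The Pank2 and Pank3 copies of miR-103-3p could hardly be separated. The row of Mir103-2, in Pank2, held 188380 reads and that of Mir103-1, in Pank3, 183880. Mir103-2 held the larger part in all 18 libraries, from 50.4% to 51.1%, with a WT mean of 50.5% before IP and 50.7% after it. The excess of the Pank2 copy was 359 to 635 reads per library in WT input and 47.5 to 125 in WT IP. A division this close to equal gives no measure of how much each copy contributed.

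Pus1 knockdown left no difference in the family that passed the test. The log2 change of the IP to input ratio from WT to KD3 was 0.21 for miR-103-3p (95% interval -0.47 to 0.90) and 0.19 for miR-107-3p (-0.78 to 1.17). From WT to KD6 it was 0.27 (-0.42 to 0.95) and 0.22 (-0.76 to 1.20), and from KD3 to KD6 0.05 (-0.63 to 0.74) and 0.03 (-0.96 to 1.01). The median change over all miRNAs was 0.13, 0.22 and 0.08 in these comparisons, and both members lay near it. By edgeR 0 of 2 members passed in each of these comparisons, where 0%, 0% and 0.182% of all miRNAs were called. By an unadjusted p under 0.05 it was again 0 of 2 members, against 3.09%, 17.8% and 16.7% of all miRNAs, and by DESeq2 0 of 2, against 0, 23 and 13 miRNAs. Up to 0.95 for miR-103-3p and 1.20 for miR-107-3p, changes of the ratio after knockdown lie within these intervals. Without the shallow KD6 input, where a KD3 input also became the TMM reference, the changes were -0.26 and -0.30 from WT to KD6 and -0.22 and -0.25 from KD3 to KD6. These were opposite in sign and also not past the threshold.

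Levels in the inputs did not pass either. From WT to KD3 the log2 ratio was -0.34 ± 0.23 (SE) for miR-103-3p and -0.23 ± 0.32 for miR-107-3p, and 0 of 2 members passed by edgeR (0% of all miRNAs), by its unadjusted p (8.36%) or by DESeq2 (8 miRNAs). From WT to KD6 it was -0.55 ± 0.23 for miR-103-3p (edgeR, unadjusted p = 0.0268, adjusted p = 0.207) and -0.40 ± 0.33 for miR-107-3p, where 4.18% of all miRNAs were called and 16.9% had an unadjusted p under 0.05. The value of miR-103-3p was -0.42 to -0.11 with any single one of these 6 libraries left out, the latter without the shallow library, and edgeR then gave an unadjusted p of 0.0644 to 0.511. Each of these fits also changed the TMM reference, so the part of a library and that of the reference cannot be told apart. The 12 other settings gave -0.60 to -0.25. Their unadjusted p ran from 0.0165 (edgeR, replicate letter as block) to 0.2985 (edgeR, library sizes without factors), and none passed after adjustment. From KD3 to KD6 the values of miR-103-3p and miR-107-3p were -0.22 ± 0.23 and -0.17 ± 0.33, with 4.36% of all miRNAs called and 16.7% at an unadjusted p under 0.05. Without the shallow library they were 0.08 and 0.15. Medians over all miRNAs with all libraries were -0.17 from WT to KD3, -0.235 from WT to KD6 and -0.096 from KD3 to KD6.

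The family belongs to the wider miR-15/miR-107 group, miRNAs that carry AGCAGC at their 5′ end. In the reference 13 of 1679 mature miRNAs, or 0.774%, hold AGCAGC from base 1 or 2 (read on the miRNA strand only). Besides both 3p members, 13 further names were listed as the group, 11 held the motif there and 7 of these had enough reads to be tested. Both highest and 2 of the 3 lowest in WT are shown with the motif in capitals, since miRNAs that share these 6 bases differed widely.
miR-16-5p: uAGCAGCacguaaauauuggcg
miR-195a-5p: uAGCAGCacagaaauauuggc
miR-15a-5p: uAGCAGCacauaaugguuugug
miR-322-5p: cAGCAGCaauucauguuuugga
In WT 5 of these 7 were called lower in IP, 0 higher and 2 in neither direction by edgeR, with a median log2 ratio of -1.73 against -0.35 over all miRNAs. In KD3 5 were lower and 1, miR-16-5p, was higher, and in KD6 5 were lower and 0 higher. The share of all miRNAs called lower was 40.2% in WT, 38.2% in KD3 and 38.4% in KD6. The share called higher was 25.5%, 27.6% and 30.5%.
miR-322-5p, the mouse counterpart of human miR-424 and known for promoting cell cycle exit in muscle precursors, was at 161 CPM ± 18.8 (SD, n = 3) in WT input and 13.1 ± 3.07 in WT IP, a log2 ratio of -3.61 ± 0.33 (SE). miR-15b-5p, a repressor of Bcl2 as is its relative miR-16-5p, was at -1.73 ± 0.36, and miR-503-5p at -1.07 ± 0.32. miR-16-5p was at 410 CPM ± 65.7 in WT input and 708 ± 59.2 in WT IP, and its log2 ratio of 0.79 ± 0.38 did not pass in WT (edgeR, adjusted p = 0.0772). miR-195a-5p was at 0.11 ± 0.34.
The miR-103/miR-107 family thus lay in the middle of the group, between miR-15a-5p at -3.28 ± 0.64 and miR-15b-5p. Uridine content was 13.0% in miR-503-5p, 19.0% in miR-195a-5p, 22.7% in miR-16-5p, 27.3% in miR-15b-5p and miR-497a-5p and 31.8% in miR-15a-5p and miR-322-5p, against 21.7% in both 3p members.

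**Figure D4:**
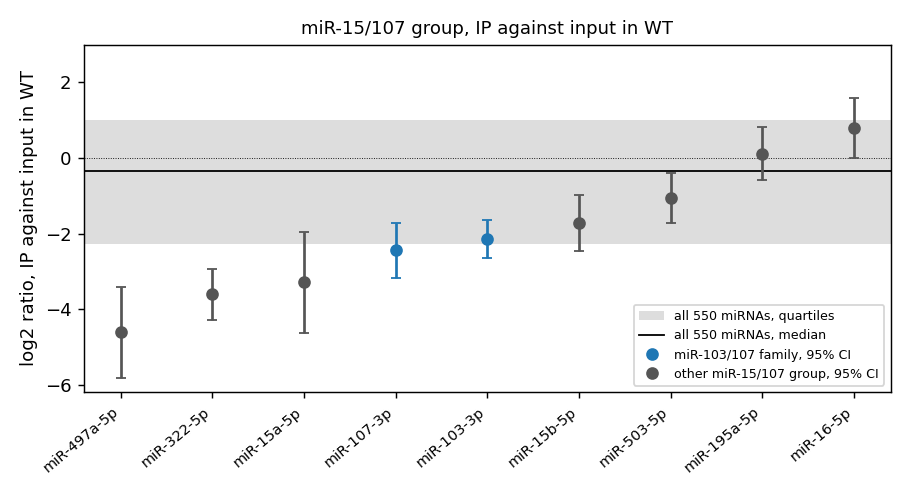
Log2 ratio of IP to input in WT (vertical axis) with 95% intervals for the 9 tested miRNAs with AGCAGC from base 1 or 2, the miR-103/miR-107 family in blue, over the quartiles (grey) and median (line) of all 550 miRNAs. The ratios run from miR-497a-5p, whose value rests on 6 reads in the 3 WT IPs, to miR-16-5p at 0.79, with both family members between -2.45 and -2.15.

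Within a library, miR-103-3p can be set beside miR-16-5p and miR-322-5p without any scaling, a pair chosen after its values were seen and given as a description. The log2 ratio of miR-103-3p to miR-16-5p reads was 3.89, 3.49 and 3.22 in the WT inputs and 0.62, 0.59 and 0.54 in the WT IPs. miR-103-3p thus went from several times the reads of miR-16-5p to less than double. Over all conditions the inputs lay between 2.28 and 3.89 and the IPs between 0.0005 and 1.45. The log2 ratio of miR-103-3p to miR-322-5p moved the other way, from 5.03, 5.00 and 4.60 in the WT inputs to 6.67, 6.06 and 6.37 in the WT IPs.

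The level profile of miR-103-3p over the 18 libraries was closest to that of miR-27b-3p among 147 miRNAs outside the family with a mean of at least 100 CPM, with a root mean square difference of 0.22 log2 units after each profile was centred. miR-214-3p (0.34), miR-24-3p (0.37), miR-186-5p (0.37) and miR-29a-3p (0.38) came next. Its own partner miR-107-3p, left out of this ranking as a member, stood at 0.32 from it, nearer than all of these except miR-27b-3p. For miR-107-3p the partner was nearer than any of the 147, and after it came miR-27b-3p (0.41), miR-29a-3p (0.41), miR-186-5p (0.43), miR-214-3p (0.44) and miR-872-5p (0.44). Reads that end before base 22 match both members, and how far shared reads bring these profiles together was not tested. The 5 named for miR-103-3p had log2 ratios of IP to input in WT between -2.47 (miR-214-3p) and -2.01 (miR-29a-3p), on both sides of its own. They were picked on profiles over these same IP and input libraries, so ratios near its own follow from that choice.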

How the data were processed

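Small RNA libraries (NEBNext kit) were made by the authors from gel-sized RNA, before and after IP with a Ψ antibody and elution with Ψ triphosphate. The authors trimmed the 3′ adapter and deposited estimated counts of mapped reads per mature miRNA and precursor, from SeqImp in its default mouse configuration (version not given in the sources used here) with mm10, Ensembl 89 and miRBase 21. Counts are not normalized, and reads matching several places are divided. The row of total mapped reads, which names no miRNA, was not tested as a miRNA and set library sizes or shares only in alternative settings. The deposited numbers of distinct read sequences were used as description only.

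Rows were summed per miRNA and the estimated counts rounded. In edgeR 4.0.16 (R 4.3.3), TMM factors, filterByExpr and glmQLFTest were applied to 6 group means over 18 libraries, leaving 550 miRNAs. The threshold was a Benjamini-Hochberg adjusted p under 0.05, adjusted over the 550 miRNAs separately in each of 9 comparisons. SE is the log2 ratio over the root of F. The procedure was also run on simulated counts, drawn with the spread fitted to these libraries and with as many miRNAs raised as lowered. No result here rests on that run. The study used DESeq2, here an alternative (1.42.0). Shares were compared by exact permutation in Python 3.11.15. Sequences came from RefSeq tables on GRCm38.p6, the assembly mm10 names, and all 6 deposited 5′ positions matched them. The members and lists were chosen with earlier results of these data known. Named miRNAs are the members, miR-107-5p, the miR-15/miR-107 list and the 5 nearest profiles to each 3p member. The list was miR-15a-5p, miR-15b-5p, miR-16-5p, miR-195a-5p, miR-195b, miR-322-5p, miR-497a-5p, miR-497b, miR-503-5p, miR-1907, miR-6342, miR-6353 and miR-6419.

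Whether replicate letters pair libraries was checked by the correlation of deviations from group means over 188 miRNAs. All same-letter values exceeded 0.1 for KD3 against WT input (0.20 to 0.61) and KD6 against KD3 input (0.24 to 0.34), and other comparisons had at least 1 value at or under 0.1. No label says what a letter shares.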

Additional observations from a re-analysis of the deposited data

How the results depend on the processing

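The depletion of both 3p members in IP kept its direction and passed the threshold in WT, KD3 and KD6 under all 36 alternatives for miR-103-3p and all 35 for miR-107-3p, including 17 that set each other library as TMM reference and were chosen after seeing the data. Single libraries left out, which also changed the TMM reference as above, gave -1.42 to -1.30 (WT), -1.45 to -1.25 (KD3) and -2.38 to -1.19 (KD6) for miR-103-3p and -1.79 to -1.51, -2.07 to -1.50 and -2.72 to -1.28 for miR-107-3p. Over all alternatives the value relative to the median of all miRNAs was -2.20 to -1.73, -1.93 to -1.62 and -2.22 to -1.49 for miR-103-3p and -2.49 to -1.94, -2.36 to -1.81 and -2.56 to -1.67 for miR-107-3p. The family share kept its call under all 21 alternatives, and with the largest row per miRNA its difference was -0.178 percentage points. With that row the miR-107-3p share differed by -1.50 percentage points (exact permutation p = 0.0583).

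Knockdown changes of either member passed under no alternative, and their signs were not stable. In the order miR-103-3p and miR-107-3p, library sizes without factors gave -0.36 and -0.41 for the change in enrichment from WT to KD6, -0.50 and -0.53 from KD3 to KD6, and 0.055 and 0.12 for input from KD3 to KD6. Total mapped reads as library size gave -0.50 and -0.56, -0.40 and -0.41, and 0.061 and 0.13 for the same, and -0.10 and -0.15 for enrichment from WT to KD3. No filter gave -0.016 and -0.057 for enrichment from WT to KD6 and -0.14 and -0.16 from KD3 to KD6. A mean of at least 10 counts gave -0.0060 for miR-107-3p from WT to KD3. Rows as deposited gave -0.013 (Mir103-2 row) and -0.015 from WT to KD3 and -0.014 for miR-107-3p from WT to KD6. With single libraries left out, each fit also changed the TMM reference, so the part of a library and that of the reference cannot be told apart. Enrichment then ran from -0.086 to 0.11 and -0.41 to 0.16 (WT to KD3), -0.26 to 0.17 and -0.30 to 0.37 (WT to KD6), and -0.22 to 0.21 and -0.25 to 0.46 (KD3 to KD6). Input ran from -0.50 to 0.074 for miR-107-3p (WT to KD6) and from -0.19 to 0.084 and -0.37 to 0.15 (KD3 to KD6). The median over all miRNAs moved with the scaling. For enrichment from WT to KD6 it was 0.22 in the main fit, -0.41 without factors and -0.56 with total mapped reads. In the same order miR-103-3p lay 0.049, 0.050 and 0.058 above that median, and miR-107-3p 0.0036, 0.0055 and 0.0003 above it. With single libraries left out, distances from the median still ran from -0.16 to 0.15 and from -0.21 to 0.33. The cause was not tested.

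The replicate block by letter left each call of the 9 edgeR comparisons as it was, for example -2.16 for miR-103-3p in WT. For the miR-107-3p share, signs of the same-letter differences, a replicate block whose pairing of IP and input no label states, gave -0.807 percentage points with p = 0.0273 (exact), past the threshold. Single libraries left out gave -1.01 to -0.545. Counts over all miRNAs varied with the setting, from 0 to 1 (0 as reported) for enrichment from WT to KD3, 0 to 51 (0) from WT to KD6 and 0 to 44 (1) from KD3 to KD6, and for inputs from 0 to 77 (0), 0 to 27 (23) and 1 to 36 (24). Depth limits the 5p arms in all 18 libraries.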
